A study of Mus musculus with 3 samples.

Results

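The Serpina3 genes are a family of serine protease inhibitors that lie side by side on mouse chromosome 12. The members were chosen by name: Serpina3n, Serpina3i, Serpina3f, Serpina3g, Serpina3h, Serpina3c, Serpina3k and Serpina3m, 8 genes of the 29787 in the tables. They were chosen because Serpina3n and Serpina3i were already known to stand high in 1 of these libraries, so the values below describe the genes and test nothing. All 8 had a transcript in the tables, 11 transcripts in all, and 5 of the 8 reached a level of 1 in some library, the limit above which 16604 genes are called measured. A level is the number of reads counted on the transcripts of a gene, scaled to library size as CPM with a TMM factor (a correction for differences in library composition).

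The libraries were made from poly(A)+ RNA of brain vessels from 3-month-old mice. The Cx43-deleted group was hGFAP-Cre/Cx43fl/fl, genotype Cx43 -/-, on the C57BL6-BALB/c background: the connexin 43 gene Gja1, which encodes the main gap junction protein of astrocytes, carries floxed alleles and is cut by a Cre recombinase driven by the human GFAP promoter. The other groups were WT mice of the C57BL6-BALB/c background and WT mice of the C57BL6 background, and neither carries a transgene by its labels. Each group had 1 library, so a difference is one between libraries, and every interval covers counting error only. Whether a library held 1 animal or a pool, and whether the WT C57BL6-BALB/c mice were littermates, the sources used here do not say. Triplets of values run from Cx43-deleted through WT C57BL6-BALB/c to WT C57BL6. Library totals were 54975610, 21170766 and 24830975 reads. The deleted gene Gja1 had 2574, 4276 and 5138 reads and levels of 48, 202 and 202. The WT values were 4.2-fold (4 to 4.41) and 4.21-fold (4.02 to 4.42) that of the Cx43-deleted library, the direction its label gives.

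Serpins trap a protease by offering it an exposed stretch, the reactive centre loop, whose sequence sets which protease is bound, and the inhibitor is used up in the reaction. Humans have a single SERPINA3 gene (alpha-1-antichymotrypsin), while the mouse has a cluster of duplicated genes whose loops have diverged. Serpina3n is the mouse member best known in the brain: it is secreted, inhibits granzyme B, leukocyte elastase and cathepsin G, and is widely used as a marker of reactive astrocytes and of the acute-phase response. Serpina3g (Spi2A) acts inside cells on cysteine cathepsins and is known from lymphocytes and myeloid cells, and Serpina3k binds kallikrein and is made by the liver. Serpina3h is annotated as a transcribed unprocessed pseudogene.

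The members lie between 104146382 and 104414329 on chromosome 12 of GRCm38. Serpina3n (ENSMUSG00000021091) is at chr12:104406729-104414329 on the plus strand, at the end of the cluster. Serpina3f is at chr12:104214544-104221129, Serpina3g at chr12:104236245-104241939, Serpina3h at chr12:104247905-104253669 and Serpina3i at chr12:104263122-104269372, all on the plus strand and next to each other. Serpina3k is at chr12:104338486-104346144 and Serpina3m at chr12:104338486-104394257, also on the plus strand. Serpina3c is the only member on the minus strand, at chr12:104146382-104153870.

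The sequences below show where the members differ most, since that is where reads can tell them apart. Over the aligned coding parts (for Serpina3h the whole transcript, which has no annotated coding part), the 8 members were compared in 487 windows of 51 bases without gaps, and 51 bases is the stretch that 1 read covers in these tables. The median window held 17.0 variable positions, and the window shown held the most, 33 of 51. It lies in the last exon of each gene, bases 1101 to 1151 of the 1254 coding bases of Serpina3n (chr12:104413450-104413500, plus strand), in the part that encodes the reactive centre loop. Each line is the strand of the gene from 5′ to 3′, read from the GENCODE M21 transcripts on GRCm38, and capitals mark the bases that differ from Serpina3n.
Serpina3n: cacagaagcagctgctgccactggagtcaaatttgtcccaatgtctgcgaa
Serpina3h: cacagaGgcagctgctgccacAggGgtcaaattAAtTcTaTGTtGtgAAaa
Serpina3i: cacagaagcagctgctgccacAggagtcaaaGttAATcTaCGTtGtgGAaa
Serpina3f: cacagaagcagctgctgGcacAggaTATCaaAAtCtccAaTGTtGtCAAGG
Serpina3g: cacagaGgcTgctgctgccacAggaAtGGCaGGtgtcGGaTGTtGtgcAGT
Serpina3c: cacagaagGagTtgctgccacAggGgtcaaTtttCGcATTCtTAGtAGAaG
Serpina3k: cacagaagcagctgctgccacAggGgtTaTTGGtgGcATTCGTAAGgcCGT
Serpina3m: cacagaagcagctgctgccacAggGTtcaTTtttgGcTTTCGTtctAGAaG
Serpina3i and Serpina3h differ from Serpina3n at 12 and 13 of these 51 bases, Serpina3m at 16, Serpina3g and Serpina3c at 18, Serpina3f at 19 and Serpina3k at 20. The first bases of the window are nearly the same in all 8 genes and the last ones are not. Over the whole aligned part the genes are more alike: identity to Serpina3n was 82.9% for Serpina3k and between 84.3% and 85.9% for the other members. The closest pair was Serpina3h and Serpina3i at 93.7%, followed by Serpina3f and Serpina3h at 91.9% and Serpina3k and Serpina3m at 91.7%.

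Serpina3n was the most abundant member in the Cx43-deleted library and stood several-fold above both WT libraries there. Its single transcript in the tables had 4518, 315 and 428 reads. As a level this is 84.2, 14.9 and 16.8. The Cx43-deleted library was thus apart from the other two, which were close to each other. The level was 5.67-fold that of WT C57BL6-BALB/c (95% counting interval 5.06 to 6.38) and 5-fold that of WT C57BL6 (4.53 to 5.53), and the ratio between the WT libraries was 0.88 (0.76 to 1.02). On the log2 scale with a pseudocount of 0.5 these are differences of 2.46, 2.29 and -0.18. Over all measured genes the median log2 ratios were 0.00, -0.03 and -0.03. Of the 16604 measured genes, 16 (0.0964%) had a ratio to the nearer WT library as large as that of Serpina3n or larger. Serpina3n itself, Serpina3h and, by its transcript identifiers, Serpina3i are among the 16. Serpina3n was chosen because it stood high here, so this small share was given by the choice. In bulk RNA, a change in the number of cells that express a gene and a change in its RNA per cell cannot be told apart.

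The reads of Serpina3n were spread over its transcript. Of its 2064 bases, 2003, 1776 and 1843 had at least 1 read in the 3 libraries, which is 97.0%, 86.0% and 89.3%. This share grows with depth, and the Cx43-deleted library was the deepest. Within 2 mismatches, 950 of the 2064 bases lie in some 51-base window that also occurs in a transcript of another gene, and the other 1114 lie in none. At least 1053, 826 and 893 of the covered bases were therefore outside any shared window, so in each library reads were found on sequence that no other annotated transcript holds within 2 mismatches.

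Serpina3h had larger folds than Serpina3n at far lower levels, with few reads in either WT library. Its full-length transcript (2042 bases) had 336 reads where Gja1 was deleted and 12 in each of the WT libraries, which is 6.26, 0.566 and 0.472 RPM (reads scaled to library size in the same way, for a single transcript). The Cx43-deleted value was 11.1-fold (6.25 to 21.6) and 13.3-fold (7.49 to 25.9) the WT values, while the WT libraries could not be told apart (1.2-fold, 0.49 to 2.92). Its shorter transcript had 102, 4 and 5 reads and gave 10.1-fold (3.82 to 37.7) and 9.66-fold (4.01 to 30.4). Covered bases of the full-length transcript numbered 1243, 508 and 540, which is 60.9%, 24.9% and 26.4%. How many of these lie outside shared windows could not be counted as for Serpina3n, because this transcript has 1239 bases in M21. Only 174 of those 1239 lie outside any shared window. The shorter transcript also differs in length, with 1224 bases as deposited and 1226 in M21. No covered base was thus shown to be Serpina3h's own, and the part of other members in these reads was not tested. Summed over both transcripts, the level was 8.16, 0.755 and 0.669, and the log2 ratios to the WT libraries were 2.79 and 2.89.

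**Figure D1:**
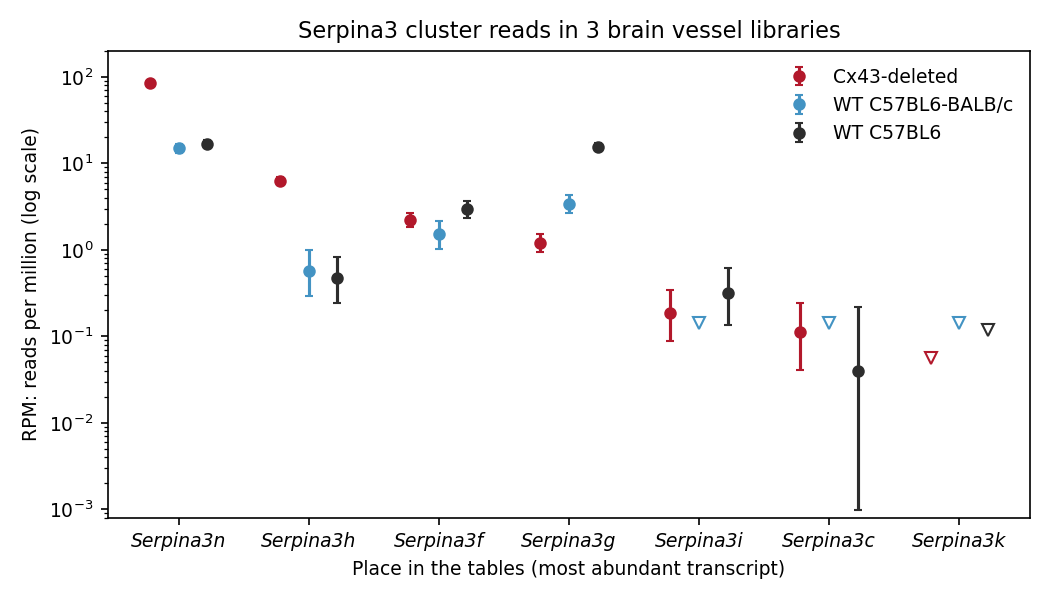
RPM (log scale) of the most abundant transcript lying at each of 7 genes, 1 point per library with its exact 95% Poisson interval; open triangles stand at the floor of 3 reads for genes with no read. Serpina3n and Serpina3h stand highest in the Cx43-deleted library (84.2 and 6.26), and Serpina3g stands highest in WT C57BL6 (15.6).

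The values under the name Serpina3i need a further look, because many of the reads lie at Serpina3h. The transcript identifiers gave Serpina3i a level of 5.39, 0.519 and 0.63, with log2 ratios of 2.53 and 2.38 to WT C57BL6-BALB/c and WT C57BL6. Of its 2 transcripts, ENSMUST00000109960 had 279, 11 and 8 of the 289, 11 and 16 counts. In the deposited coordinates this transcript does not lie at Serpina3i: it starts where the shorter transcript of Serpina3h starts and ends where the longer one ends. Of 38 serpin transcripts of the cluster matched by identifier, 30 kept a start or end at the same distance from GRCm38, 6 were within 10000 bases of it, and 2 were displaced further, this one among them. The transcript that does lie at the Serpina3i gene, ENSMUST00000109958, had 10, 0 and 8 reads, and its covered share was 24.7%, 0% and 24.7%.

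Grouping the transcripts by where they lie, a choice made after the values were seen, changed the picture for both genes. Serpina3i then lay below a level of 1 in every library (0.336, 0 and 0.433), and its log2 ratios became 0.74 and -0.16 in place of 2.53 and 2.38. Serpina3h was then at 13.4, 1.27 and 0.984, with ratios of 2.97 and 3.22. Transcripts at the Serpina3h place overlap and can hold the same reads, so a sum over them is not a number of separate reads. The transcript named Serpina3i that lies at Serpina3h had folds of 10 (5.52 to 20.3) and 16.5 (8.27 to 38.6), close to those of the Serpina3h transcripts themselves. Serpina3i is the gene whose pair of log2 ratios was nearest to that of Serpina3n among 12775 genes compared, at a distance of 0.115, and that nearness rests on the displaced transcript.

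Serpina3g went the other way and was high only in the WT C57BL6 library. Its transcript had 65, 72 and 396 reads, a level of 1.21, 3.4 and 15.6. WT C57BL6 was at 12.9-fold (9.88 to 17) the Cx43-deleted level and at 4.59-fold (3.56 to 5.99) the level of the mixed-background WT library. Both libraries of the C57BL6-BALB/c background were thus low, and between them WT was 2.8-fold (1.98 to 3.98) the Cx43-deleted library. The log2 ratios were -1.19 and -3.23 for Cx43-deleted against the WT libraries and -2.05 between the WT libraries. The covered share was 56.4%, 57.6% and 73.3% of the transcript. Which strain's copy of the cluster the mixed-background mice carried the sources used here do not say, and the part of strain in these reads, or in how well they aligned, was not tested.

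Serpina3f differed least among the measured members. Its longer transcript had 119, 32 and 75 reads, which is 2.22, 1.51 and 2.95 RPM. The Cx43-deleted library lay between the WT libraries, at 1.47-fold (0.99 to 2.25) the WT C57BL6-BALB/c value and 0.75-fold (0.56 to 1.02) the WT C57BL6 value, and both intervals include no difference. Its shorter transcript, with 119, 30 and 75 reads, was at 1.57-fold (1.04 to 2.43) the WT C57BL6-BALB/c value, just excluding it. Between the WT libraries the longer transcript was in C57BL6 at 1.96-fold (1.28 to 3.06) the C57BL6-BALB/c value. The covered share was 63.0%, 38.7% and 58.1%, and 1322 bases of the 2248-base longer transcript lie in shared 51-base windows. That leaves at least 94, 0 and 0 covered bases outside them, so in the WT libraries no read has to come from Serpina3f itself.

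Serpina3c, Serpina3k and Serpina3m were at or near no reads. Serpina3c had 6, 0 and 1 reads, and Serpina3k had none in any library. A floor of 3 reads per library, a limit set here, corresponds to 0.0559, 0.141 and 0.118 RPM. A value below it, as that of Serpina3c in WT C57BL6, rests on fewer than 3 reads and is not read further. Serpina3m had 8, 0 and 3 reads by its identifier, ENSMUST00000101078, which is the other displaced transcript: in the tables it lies inside Serpina3i. Grouped by place, no transcript used lies at Serpina3m, and its expression cannot be read from the matched transcripts.

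**Figure D2:**
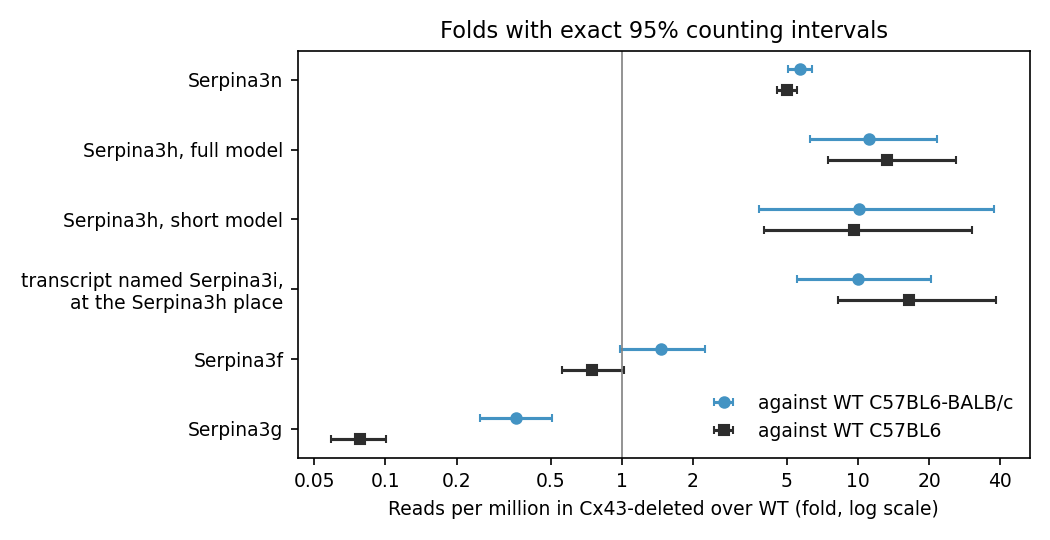
Fold of Cx43-deleted over each WT library (log scale) for 6 transcripts, with exact 95% binomial intervals of the read numbers. The 4 transcripts at Serpina3n and Serpina3h lie between 5 and 16.5, the intervals of Serpina3f reach 1 on both sides, and Serpina3g lies below 1 against both WT libraries.

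By the identifiers, 3 members (Serpina3n, Serpina3i and Serpina3h) were 2-fold or more higher in Cx43-deleted than in WT C57BL6-BALB/c, where 1.05% of all measured genes were, and 1 (Serpina3g) was 2-fold or more lower, where 1.01% were. With a pseudocount of 1 this log2 ratio of Serpina3g was -0.99 and the call was lost. The same 3 were 2-fold or more higher than in WT C57BL6 (1.54% of all genes) and the same 1 lower (2.91%). Grouped by place, Serpina3n and Serpina3h remained, which makes 2 higher in each comparison. In the WT C57BL6-BALB/c library no member was 2-fold higher than in WT C57BL6 (1.17% of all genes) and Serpina3g was 2-fold lower (2.09%). Serpina3g was also 2-fold or more higher in WT C57BL6 than in both other libraries, where 0.988% were. Nothing is read from these shares, because the members were chosen on values of these libraries, and the comparisons share libraries.

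Per length, the order of the members was not the same in the 3 libraries. In RPKM (RPM divided by the transcript length in kilobases), Cx43-deleted held Serpina3n at 40.8 (39.6 to 42), Serpina3h at 3.07 (2.75 to 3.41), Serpina3f at 0.987 (0.817 to 1.18) and Serpina3g at 0.648 (0.5 to 0.826). Serpina3n and Serpina3h stood apart from all others there, and the intervals of Serpina3f and Serpina3g met. In WT C57BL6-BALB/c the order was Serpina3n at 7.2 (6.42 to 8.04), Serpina3g at 1.82 (1.42 to 2.29), Serpina3f at 0.671 (0.459 to 0.948) and Serpina3h at 0.277 (0.143 to 0.484), and the last pair overlapped. In WT C57BL6, Serpina3g at 8.34 (7.53 to 9.2) and Serpina3n at 8.16 (7.41 to 8.97) could not be ordered. Serpina3f followed at 1.31 (1.03 to 1.65), then Serpina3i at 0.471 and Serpina3h at 0.231, whose intervals met. Serpina3h therefore stood above Serpina3f and Serpina3g in the Cx43-deleted library only.

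The make-up of the cluster's reads can be given as shares within a library, which do not depend on the scaling. Counting the most abundant transcript at each of 7 places, the cluster had 5054, 431 and 920 reads, or 94.2, 20.3 and 36.2 RPM. The Cx43-deleted total was 4.64-fold (4.2 to 5.13) that of WT C57BL6-BALB/c and 2.6-fold (2.42 to 2.79) that of WT C57BL6. Serpina3n took 89.4% (exact Clopper-Pearson 95% interval 88.5 to 90.2), 73.1% (68.6 to 77.2) and 46.5% (43.3 to 49.8) of them. Serpina3g took 1.29%, 16.7% (13.3 to 20.6) and 43% (39.8 to 46.3). Serpina3h took 6.65% (5.98 to 7.37), 2.78% (1.45 to 4.81) and 1.3% (0.68 to 2.27). The WT libraries had like amounts of Serpina3n and differed in Serpina3g, and the Cx43-deleted library differed from both mainly in Serpina3n.

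**Figure D3:**
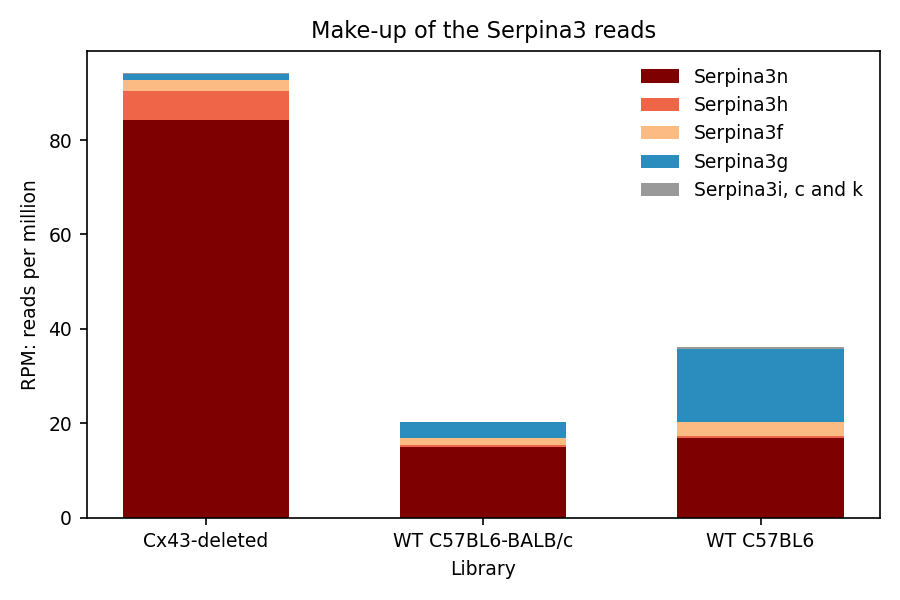
Stacked RPM of the most abundant transcript at each gene of the cluster, 1 bar per library. The bars reach 94.2, 20.3 and 36.2, and Serpina3g, which is a thin band in Cx43-deleted, makes up 43% of the WT C57BL6 bar.

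All 10 endothelial and all 8 pericyte markers had reads in each library, and so did all 9 of oligodendrocytes, all 8 of neurons and all 7 of choroid plexus. The 12 astrocyte markers, the cells in which Serpina3n is best known, summed to 6215, 6669 and 7428, and the 10 endothelial ones to 6917, 6470 and 10222. The 7 choroid plexus markers summed to 3717, 2687 and 7075, so all 3 of these sums were highest in WT C57BL6. So were most of the cell type sums, among them pericytes (2938, 2879 and 4823) and oligodendrocytes (13765, 14130 and 17629). Smooth muscle (2232, 3810 and 2913) and neurons (3165, 3414 and 2846) were highest in WT C57BL6-BALB/c. Perivascular macrophages (119, 87.6 and 117) were highest in Cx43-deleted. The 8 plasma and B cell markers, 6 of them measured, summed to 199, 47.6 and 34.7, highest in Cx43-deleted. Igkc, Ighg1 and Jchain carried that sum, with 90.4, 76.4 and 16.9 in Cx43-deleted, while Ighm was lowest there (7.51, 28.2 and 21.8) and Sdc1 had log2 ratios of -0.59 and -0.53. None of these 8 is at 0 in a library. Their part in the Serpina3 differences was not tested.

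How far reads of the members can be told apart varied from gene to gene. With windows of 50 bases and up to 2 mismatches, 27.8% of the windows of Serpina3n also occurred in a transcript of another gene, the lowest share of the 8. The shares were 32.8% for Serpina3c, 33.6% for Serpina3k, 36.7% for Serpina3f and 40.3% for both Serpina3g and Serpina3i. Serpina3m had 49.9% and Serpina3h 57.3%. These shares are for the transcripts as M21 gives them. For Serpina3i this is the transcript at its own gene, with 2200 bases in M21 and 669 as deposited. The displaced transcript, which carries most reads under that name in Cx43-deleted, had 85.4%. It has 701 bases in M21 and 1405 as deposited. Only Serpina3n, Serpina3f and Serpina3c had equal lengths in both, so for the other members the shares may not hold for the sequence that was counted. The gene that Serpina3h shared most windows with was Serpina3i, with 475 windows, and this is also the pair of highest identity. The values of Serpina3f, Serpina3g, Serpina3h and Serpina3i are uncertain where windows are shared. The sources used here do not say how a read that fits several genes was treated.

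**Figure D4:**
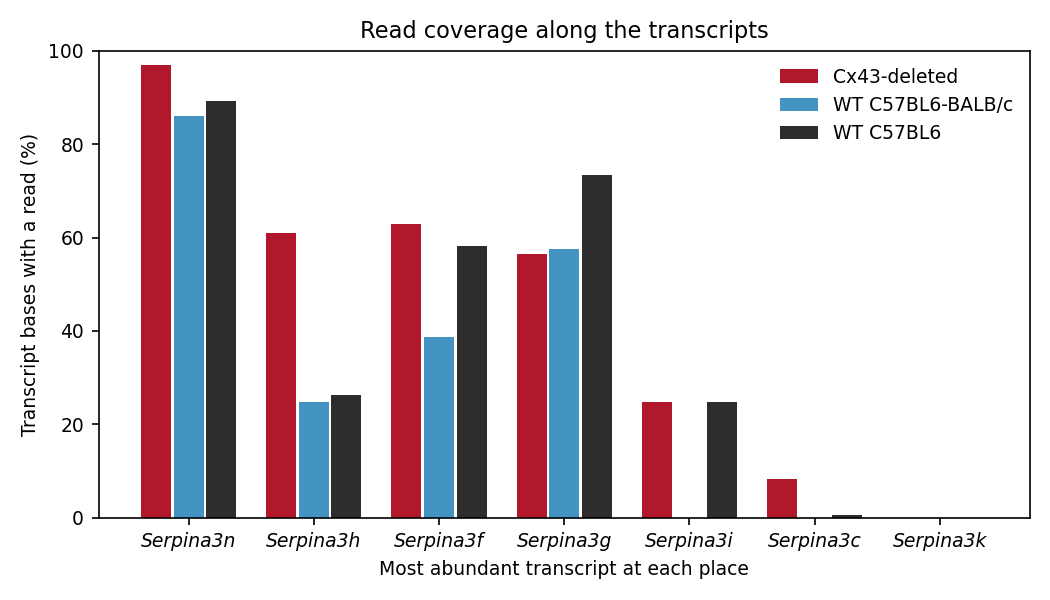
Share of the bases of each transcript with at least 1 read, in percent, for the most abundant transcript at each gene and each library. Serpina3n was covered over 97.0%, 86.0% and 89.3% of its bases, Serpina3h over 60.9% in Cx43-deleted against 24.9% and 26.4%, and Serpina3k over none.

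The sequence upstream of the start was set beside these patterns, since the members differ in the library where they stand high. RefSeq gives a promoter entry on GRCm38.p6 for 5 of the members: Serpina3n, Serpina3f (with 2 starts), Serpina3g, Serpina3i and Serpina3c. The 250 bases before the start are printed for Serpina3n at chr12:104406458-104406707, Serpina3f at chr12:104214294-104214543 and Serpina3g at chr12:104235897-104236146, all on the plus strand and from 5′ to 3′. Capitals mark matches to the STAT-type motif TTCNNNGAA or to the TATA box TATAAA, both strands searched.
Serpina3n: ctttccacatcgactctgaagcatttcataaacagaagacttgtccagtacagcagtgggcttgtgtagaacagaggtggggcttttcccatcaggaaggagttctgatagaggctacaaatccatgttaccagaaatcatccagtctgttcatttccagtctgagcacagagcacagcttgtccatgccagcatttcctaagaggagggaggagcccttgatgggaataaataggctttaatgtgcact
Serpina3f: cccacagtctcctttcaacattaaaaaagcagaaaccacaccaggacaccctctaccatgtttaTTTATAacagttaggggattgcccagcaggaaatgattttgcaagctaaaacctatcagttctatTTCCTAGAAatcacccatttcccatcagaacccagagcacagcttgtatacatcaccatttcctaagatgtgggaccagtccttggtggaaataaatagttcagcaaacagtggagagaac
Serpina3g: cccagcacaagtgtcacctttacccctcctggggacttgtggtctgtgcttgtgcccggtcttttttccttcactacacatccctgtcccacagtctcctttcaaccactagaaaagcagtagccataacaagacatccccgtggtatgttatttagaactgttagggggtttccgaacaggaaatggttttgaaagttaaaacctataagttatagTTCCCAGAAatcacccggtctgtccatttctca
The STAT-type motif, the letters bound by STAT transcription factors, reads the same on both strands. It was found 121 bases before the start of Serpina3f, 33 before that of Serpina3g and 102 before that of Serpina3i. The 250 bases of Serpina3n and Serpina3c did not hold these letters. Of all 32851 RefSeq promoters searched over the same length, 2306 (7.02%) held the motif. A 14-base glucocorticoid receptor motif, AGAACA followed by NNN and TGTTC, was on neither strand in any of the 5 members, and 10 promoters held it (0.03%). The shorter AGAACA was 183 bases before the start in Serpina3n, 164 in Serpina3i, 180 in Serpina3c and 94 before the later start of Serpina3f, and 5284 promoters (16.1%) held it. The C/EBP motif TTGCGCAA was in no member and in 54 promoters (0.164%). TATAAA was in Serpina3c (132 bases before the start) and, on the other strand, in Serpina3f (186), against 4063 promoters (12.4%). These are matches of letters within a short window and say nothing of binding.

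Around the members, the other serpins of the cluster had few reads. Of 16 further serpin genes between 103614786 and 104414329, 3 reached a level of 1, 8 had 0 to 3 reads in every library and 2 of these had none at all. Serpina9 was measured alike in all libraries, with 201, 74 and 94 reads and levels of 3.75, 3.49 and 3.7. Serpina1b, a mouse alpha-1-antitrypsin gene of the liver, had 61, 0 and 1 reads, an exact lower limit of 6.34-fold for Cx43-deleted over the mixed-background WT library (8.04-fold against its floor of 3 reads), and at 28.9-fold (4.99 to 1160) the WT C57BL6 value. Serpina11 had 28, 0 and 0 reads on its most abundant transcript, with exact lower limits of 2.81-fold and 3.36-fold (3.69-fold and 4.42-fold against the floor). In Cx43-deleted a level of 1 is 53.6 reads, so that transcript alone stays below it. The gene's level of 1.62 there is a sum over its transcripts, which can hold the same reads. Of 14 hepatocyte markers in the tables, 4 were measured, the summed level of all 14 was 7.61, 4.62 and 7.99, Fgb and Cyp3a11 had no read in any library, and the albumin gene Alb had 3, 1 and 0 reads. The part of such transcripts in the Serpina3 reads was not tested.

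The nearest genes outside the serpins did not follow Serpina3n. Ifi27, an interferon-induced gene on the side away from Serpina3n, was at 500, 361 and 624, lowest in WT C57BL6-BALB/c. Ddx24 had log2 ratios of -0.08 and -0.21 to the WT libraries, and on the Serpina3n side Dicer1 had -0.07 and 0.25 and Clmn -0.07 and -0.01. None of the 8 measured flanking genes was 2-fold from both WT libraries. Of all measured genes 0.428% were 2-fold above both and 0.379% below both, so none among 8 does not set these genes apart.

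Genes with a pattern most like that of Serpina3n were taken by the distance between pairs of log2 ratios over the 3 libraries. After Serpina3i they were Cd300lf, an inhibitory receptor of myeloid cells, at levels of 14.2, 2.5 and 3.27, and Ubtd2, at 20, 4.53 and 3.74. Next came Jchain, the joining chain of polymeric antibodies, at 16.9, 3.07 and 1.85, and Rdh13, a mitochondrial retinol dehydrogenase, at 247, 59.5 and 76.9. The distances were 0.365, 0.435, 0.627 and 0.744. All of these were high in the Cx43-deleted library, as the rule requires, and their levels ranged from below to above that of Serpina3n.

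Serpina3n is known as a target of interleukin-6 type cytokines acting through STAT3, and as a gene that glucocorticoids and brain injury raise. Of 24 measured genes of the IL-6, OSM and STAT3 list, none was 2-fold higher than both WT libraries, where 0.428% of all genes were, and 1 was 2-fold lower than both, where 0.379% were. That gene was Junb, with log2 ratios of -1.25 and -1.31. The transcription factor gene Stat3 was at 372, 388 and 508, the feedback inhibitor Socs3 at 15, 18.2 and 21, and the shared receptor chain Il6st at 159, 203 and 327, so Cx43-deleted was the lowest library for each. Il6, Osm and Il11 were below a level of 1 in every library. Not all genes of the list were lowest there: 9 of the 24 were below both WT libraries and 5 were above both. Cebpd was 2-fold higher than WT C57BL6-BALB/c but not than WT C57BL6, with log2 ratios of 1.05 and -0.5. The list's median log2 ratios were 0.03 and -0.24. This list and those below were chosen with earlier results of these data known, so their counts test nothing. The part of IL-6 type cytokines in the Serpina3n reads was not tested.

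Of 26 glucocorticoid-induced genes, all measured, 5 were 2-fold or more above both WT libraries, where 0.428% of all genes were, and none was 2-fold below both, where 0.379% were. The median log2 ratios were 0.54 and -0.09. Fkbp5, a chaperone partner of the glucocorticoid receptor, was at 315, 97.9 and 51.4. Zbtb16 was at 129, 56.8 and 26.5, Map3k6 at 146, 57.8 and 57.2 and Sult1a1 at 141, 60.9 and 63.8. These 4, named because they stood furthest above both WT libraries, had smaller ratios than Serpina3n to WT C57BL6-BALB/c. Against WT C57BL6, the log2 ratio of Fkbp5 was larger than that of Serpina3n (2.6 against 2.29). Zbtb16, Map3k6 and Sult1a1 were smaller there, at 2.26, 1.34 and 1.14. Of the 26 genes, 10 were above both WT libraries, 4 were below both and the others lay between. Sgk1 was at 773, 556 and 851, highest in WT C57BL6, and Dusp1 had log2 ratios of -0.46 and -1.66. Lcn2, which is in the list and is also a marker of reactive astrocytes, was at 116, 99.3 and 643 and stood high in WT C57BL6, as Serpina3g did. The part of glucocorticoids in the Serpina3n reads was not tested.

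Among 32 measured genes of reactive astrocytes, Fkbp5 was 2-fold above both WT libraries (0.428% of all genes were) and Cd14, Emp1 and Fbln5 were 2-fold below both (0.379%), and the median log2 ratios were -0.17 and -0.70. The intermediate filament gene Vim was at 753, 1204 and 1227. Of 12 measured acute-phase plasma protein genes, Serpina1b was above and haptoglobin (Hp) below, against the same 0.428% and 0.379%, and complement C4b was at 37.6, 26.3 and 26.1. Against that background, of 15 measured serpins elsewhere in the genome none was 2-fold from both WT libraries, with Serpine2 at 129, 209 and 193 and the collagen chaperone Serpinh1 at 123, 213 and 302. Of 11 measured proteases of the kinds that these serpins inhibit none was 2-fold from both: Mmp9 was at 9.84, 6.37 and 5.63, and Ctsl, a cysteine cathepsin, at 83.8, 104 and 127. The protease genes Ctsg, Elane and Gzmb, whose products Serpina3n inhibits, were below a level of 1 in every library.

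**Figure D5:**
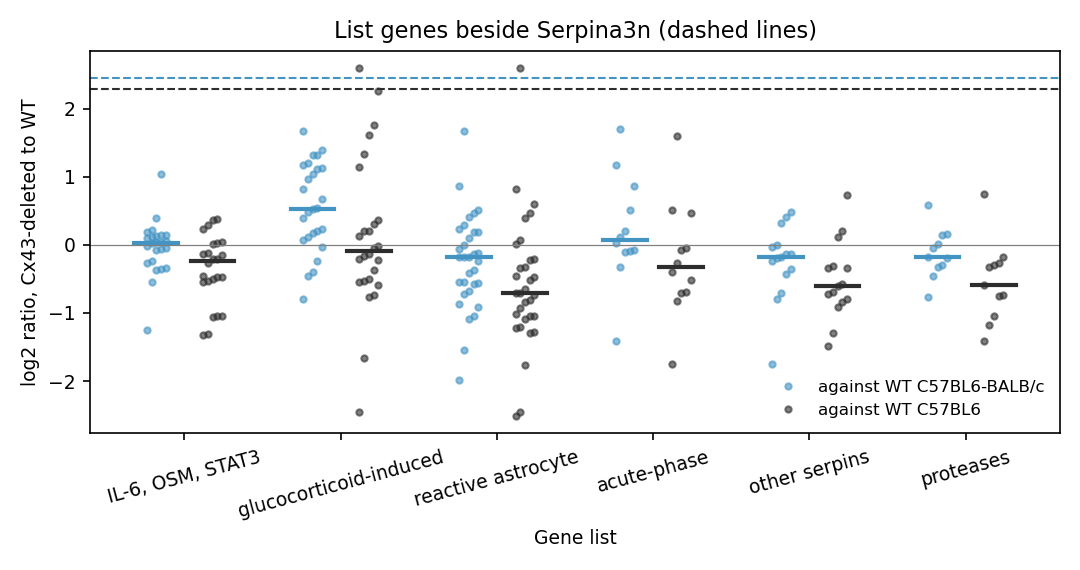
Log2 ratio of Cx43-deleted to each WT library for the measured genes of 6 lists, 1 point per gene and comparison, with short bars at the list medians and dashed lines at Serpina3n (2.46 and 2.29). Against WT C57BL6-BALB/c no point reaches the line, and against WT C57BL6 the point above it in both lists that hold the gene is Fkbp5.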

How the data were processed

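RNA-seq libraries of brain vessels were analysed, 1 per group, with groups taken from the labels. Per the file headers, the authors deposited for 82813 Ensembl transcripts a read count, not normalised, the count as a fraction of 1 library total, the transcript length and its bases with no read. Dividing count by fraction gave the totals, between 21170766 and 54975610. Counts sum to 2.45 to 2.55 times the totals, so a read can be counted more than once, and the kit keeps no strand. The submitters' processing notes name CASAVA 1.8.2, Bowtie and mm10; the sources used here do not say how reads were counted or what was done with those fitting several genes.

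The deposited coordinates run past the GRCm38 end of chromosome 1 (197054592 against 195323493) and served only to compare places within the tables. Names and positions come from GENCODE M21 on GRCm38, matched by identifier (69379 matched, 217 of these on another chromosome and left out, 13434 unmatched). Counts were summed per gene and scaled to CPM with TMM factors of 0.976, 1 and 1.02 (edgeR 4.0.16, R 4.3.3). Log2 ratios used a pseudocount of 0.5, which understates ratios of low genes. Folds and their exact 95% intervals come from reads of 1 transcript (scipy 1.17.1, Python 3.11.15). With 1 library per group there is no test. Windows were searched with bwa 0.7.19 against all M21 transcripts and coding parts aligned with mafft 7.526. The log2 ratios, the 2-fold calls and the fold intervals were tried on simulated Poisson counts, without variation between animals or shared reads. The window search, the shares and the grouping by place were not tried in this way.

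The members, lists and comparisons were chosen with earlier results of these data known. Named besides the members were the other cluster serpins, up to 5 flanking protein coding genes a side, the 5 genes nearest to Serpina3n (protein coding, level of 5 or more in a library), Gja1, and from each list up to 4 genes furthest outside both WT libraries and up to 3 of highest level; further list genes were named after their values were seen. Alternatives were scaling by library total or DESeq2 1.42.0 size factors, pseudocounts of 0.1 and 1, no minimum level or 5, the most abundant transcript alone, and other window settings. Grouping by place and windows of 51 bases were added after the data were seen.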

Additional observations from a re-analysis of the deposited data

Results flagged for a closer look

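Transcripts in the tables that have no match in GENCODE M21 enter none of the comparisons, and 3 that overlap the cluster in the deposited coordinates had reads in the Cx43-deleted library above those of the WT libraries. ENSMUST00000101079, which overlaps Serpina3g and Serpina3h, had 336 reads in Cx43-deleted against 12 in the mixed-background WT library and 13 in the C57BL6 one, 11.1-fold (6.25 to 21.6) and 12.2-fold (7.06 to 23.2). The Serpina3h transcript had 336, 12 and 12, and both had 1243 covered bases in Cx43-deleted and 508 in WT C57BL6-BALB/c. ENSMUST00000109971, at Serpina11, had 28 reads in Cx43-deleted and 0 in both WT libraries, with exact lower limits of 2.81-fold and 3.36-fold. The matched Serpina11 transcript, of the same 1441 bases, also had 28, 0 and 0 reads, so both may hold the same reads. ENSMUST00000055089, which starts at Serpina3k and runs past it, had 8 reads in Cx43-deleted and 0 in both WT libraries. The exact lower limits of its folds were 0.675 and 0.808, so no difference is within the counting error. Serpina3k itself had no read.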

How the results depend on the processing

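Over 6 alternatives (scaling, pseudocount, the most abundant transcript alone, and grouping by place, which was added after the data were seen), the log2 ratio of Serpina3n stayed within 2.43 to 2.5 and 2.22 to 2.32 against the WT libraries. Serpina3h ranged over 2.39 to 3.27 and 2.46 to 3.43, Serpina3g over -1.41 to -0.99 and -3.58 to -2.91, and Serpina3f over 0.44 to 0.59 and -0.44 to -0.34. With a pseudocount of 1, Serpina3g is at -0.99 and 0 members in place of 1 are 2-fold lower than WT C57BL6-BALB/c, since a larger pseudocount shrinks low ratios. Grouped by place, Serpina3i reversed against WT C57BL6 (-0.16) and stood at 0.74 against WT C57BL6-BALB/c, because its displaced transcript then counts at Serpina3h. Under the alternatives, 234 log2 ratios were taken, for the 8 members, Gja1, Cd300lf, Ubtd2, Jchain and Rdh13. The ratios of the other genes named were not put through them. Of the 234, 230 moved by no more than their counting error, 3 moved further and this 1 of Serpina3i reversed. The counting error is wide for members with few reads and has no upper limit where a library has 0. Among the 230, Serpina3i between the WT libraries went from -0.15 to 0.32 with the most abundant transcript alone. Of 48 counts over all genes 45 held within 1.5 times; the WT C57BL6-BALB/c excess over WT C57BL6 went from 195 to 298 with a pseudocount of 0.1 and to 120 with a minimum level of 5, and that of Cx43-deleted over WT C57BL6-BALB/c from 175 to 113 with the latter. No scaling moved the median over all genes by more than 0.07.

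Summed over all transcripts by identifier, Serpina3n took 81.2%, 66.2% and 42.3% of the member counts. It took 84.7%, 71.3% and 46.4% with the most abundant transcript of each member alone, and 89.4%, 73.1% and 46.5% with that at each place. The share of windows found in another gene was taken on the M21 transcripts and depends on the window, by construction. For Serpina3n it was 38.9% at 36 bases, 3.9% at 100 bases and 6.9% with exact matches. In the same order it was 50.4%, 2.0% and 4.3% for Serpina3c, 46.7%, 13.8% and 14% for Serpina3k, 50.2%, 12.9% and 10.7% for Serpina3f, 57%, 15.2% and 16% for Serpina3g, 53.8%, 25.4% and 15.4% for Serpina3i, 63.7%, 19.9% and 19.1% for Serpina3m, and 75.4%, 24.6% and 23.9% for Serpina3h.

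Depth limits the members near 0: a level of 1 is 53.6, 21.2 and 25.4 reads. No paired analysis was possible because each group has 1 library and the labels give no replicate numbers, and no library could be left out.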
